A study of Homo sapiens with 6 samples.

Results

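The genes described here are the enzymes, kinase subunits, exchange factors and transcription factors that make, destroy and read cyclic AMP (cAMP), a small second messenger. They were taken by symbol from a list of 44 genes, and 43 of the 44 were among the 34811 genes of the RNA-seq count table. The exception was ADCY8, which had no row in a table that held no gene with 0 counts in every library. RNA was measured in 3 libraries of OV3/SCR cells and 3 libraries of OV3/COX1KD cells, each from an independent passage. Both are stable transfectants of OVCAR-3, an established human ovarian carcinoma cell line, carrying a pRS plasmid selected with puromycin. The plasmid encoded a scrambled shRNA in OV3/SCR and an shRNA against COX-1, the cyclooxygenase encoded by PTGS1, in OV3/COX1KD. Each condition was represented by 1 clone (clone #1 of OV3/SCR and clone #2 of OV3/COX1KD), so the effect of the shRNA and the difference between clones cannot be told apart, and p-values measure only the spread between passages of a clone. Cells of both conditions grew in RPMI-1640 with 10% fetal bovine serum.

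Receptors coupled to the stimulatory G protein switch on adenylyl cyclases, which turn ATP into cAMP. Phosphodiesterases break cAMP down, and each family has its own regulation and preference for cAMP or cGMP. cAMP acts mainly by releasing the catalytic subunits of protein kinase A (PKA) from its regulatory subunits and by opening the Epac exchange factors, which load the small GTPase RAP1. PKA phosphorylates CREB1 and its relatives CREM and ATF1, which bind the cAMP response element (CRE) in promoters together with coactivators of the CRTC family. The prostaglandins that COX-1 helps to make include PGE2, whose EP2 and EP4 receptors raise cAMP. Whether the RNA of this pathway differed after COX-1 knockdown is the question the comparison addresses.

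The CRE is shown first because it links the last step of the pathway to the genes themselves: 4 members carry the full palindrome TGACGTCA near an annotated start site, so that they hold the element that CREB1, CREM and ATF1 recognise. The windows below are from RefSeq promoters (250 bases before to 50 after a start site) and were placed on GRCh37 by exact match. They read 5′ to 3′ along the gene's strand, with the CRE in capitals.
CREM, chr10:35484749-35484818, plus strand: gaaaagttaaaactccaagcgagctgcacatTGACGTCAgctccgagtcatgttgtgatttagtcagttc
PDE4A, chr19:10527415-10527453, plus strand: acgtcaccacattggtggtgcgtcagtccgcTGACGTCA
PDE7B, chr6:136172653-136172722, plus strand: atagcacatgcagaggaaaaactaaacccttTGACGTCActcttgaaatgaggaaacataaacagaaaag
PRKAR1A, chr17:66508491-66508560, plus strand: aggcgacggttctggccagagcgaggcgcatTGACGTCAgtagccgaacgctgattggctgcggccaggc
For comparison, DUSP1, a phosphatase gene long studied as a CREB target, chr5:172198285-172198354, minus strand: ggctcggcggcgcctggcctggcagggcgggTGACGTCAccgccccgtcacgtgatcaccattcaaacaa
The CREM element lies at a start site inside the gene, whose annotated span runs from 35415719 to 35501886 on chromosome 10. The first base of the CRE stood at -50 from the start site in CREM, -155 in PDE7B, -49 in PRKAR1A and -125 in DUSP1. In PDE4A the element began at -3 and ran across the start site itself.

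RefSeq promoters (table of GRCh38.p14) were matched for 37 of the 44 members, with 115 start sites among them. The full CRE was found in 6 of these 115 promoters (5.22%), against 649 of all 35116 promoters in the table (1.85%). Counted by gene, 4 of 37 members held it (10.8%), against 2.25% of all genes, although the members had a median of 3 promoters per gene and all genes a median of 1. CREM held it in 2 of 7 promoters, PRKAR1A in 2 of 5, PDE4A in 1 of 5 and PDE7B in its only 1. The half-site TGACG, searched on both strands (CGTCA) and contained in every full CRE, was found in 23.5% of the members' promoters and in 24.6% of all promoters. Counted by gene it was in 45.9% of members and in 28.4% of all genes, again with more promoters per gene among the members. Promoters of the same gene overlap, a match is a description of letters and not of binding, and its absence says only that the letters are not in the window. No entry was found for PKIA, PDE7A, ADCY6, PDE3B, ADCY8, CRTC2 and ADCY9. The 4 genes with a full CRE did not move together: PDE4A fell, PRKAR1A rose by less than 0.2 on the log2 scale, and CREM and PDE7B did not pass the test.

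Library totals lay between 25291505 and 27391538 counts, and 3 counts, the smallest level taken as detectable, corresponded to 0.113 to 0.120 CPM (counts over library size, with each size adjusted by edgeR's TMM factor), which covers counting error only. Counts of libraries of the same condition differed by more than sampling noise, at 1.74 to 5.74 chi-square units per degree of freedom, and by 40.3 to 53.3 between conditions. PTGS1, the targeted gene, had 713, 658 and 641 counts in OV3/SCR and 456, 486 and 501 in OV3/COX1KD, so that 73.3% of its RNA level remained (log2 fold change -0.45, SE 0.057, edgeR FDR 1.3e-06). The study chose this OV3/COX1KD clone as the one with the most efficient fall in COX-1 protein. It also reported less conversion of arachidonic acid to prostaglandins in OV3/COX1KD cells. All 10 markers of serous ovarian epithelium were detected, with a summed level of 4772 to 4816 CPM in OV3/SCR and 6185 to 6365 in OV3/COX1KD. They did not move as one: KRT8 rose from 1502 to 2360 CPM, while the lineage factor PAX8 fell from 756 to 447 CPM (FDR 4.3e-13) and KRT7 from 1041 to 942 CPM (FDR 0.00010). Fibroblast markers summed to 10.9 to 11.6 CPM in OV3/SCR and 6.72 to 7.43 in OV3/COX1KD, mostly COL1A1. Of the 6 fibroblast markers 5 were above 3 counts in some library, while markers of blood and endothelium, of which 4 of 6 were, summed to 2.03 to 2.58 CPM over all libraries. The epithelial and fibroblast sums moved with the condition, and their part in the results was not tested.

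OV3/COX1KD cells held less RNA of several phosphodiesterases and of the Epac factor RAPGEF3, and more of the cyclase ADCY2, the PKA subunit PRKAR2B and the phosphodiesterase PDE8B. PDE1C fell to 17.3% and PDE4D to 22.0% of their OV3/SCR levels, while ADCY2 rose 3.38-fold and PRKAR2B 1.71-fold. Of the 44 members, 37 passed the filter on low counts and were tested, 6 did not pass and 1 had no row. At an FDR under 0.01, 20 of the 37 were called, 10 higher and 10 lower, a share of 54.1% that was close to the 47.9% of all 17309 tested genes (25.8% higher and 22.1% lower). The division was 6 higher and 10 lower when libraries were scaled by total counts. A log2 fold change beyond 0.5 was reached by 4 higher and 5 lower members (24.3% of those tested, against 19.9% of all genes, 9.87% higher and 10.0% lower). By the stricter limit of a fold change above 2.5, 2 members were higher and 2 lower, against 3.92% of all genes (1.58% higher and 2.34% lower). PDE3A, 1 of the 2 higher genes, and PDE2A, 1 of the 5 lower genes beyond 0.5, passed the filter only through the condition in which each was high, so their calls add no support to these counts. Among the 34 members with at least 10 counts in every library, which leaves out PDE2A, PDE3A and PDE3B, 8 were higher and 9 lower.

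**Figure D1:**
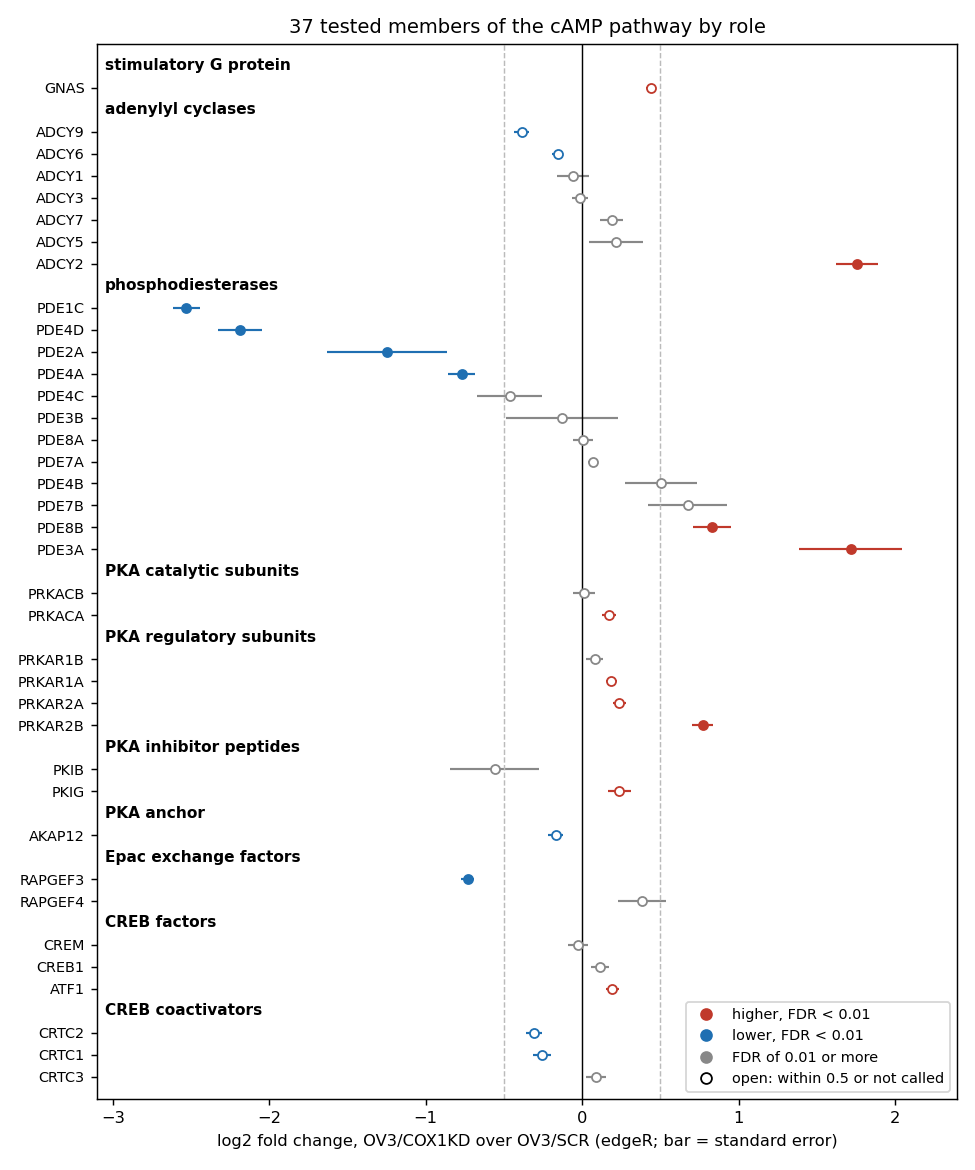
log2 fold change of each of the 37 tested members (x axis, OV3/COX1KD over OV3/SCR, bars are standard errors from edgeR), grouped by role on the y axis, with dashed lines at 0.5 in each direction. Phosphodiesterases span the range from PDE1C at -2.53 to PDE3A at 1.72, while the PKA, CREB and CRTC genes other than PRKAR2B lie within the dashed lines or, for PKIB, did not pass the test.

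The median log2 fold change of the tested members was 0.07, against -0.01 over all genes, and the median size of change without its sign was 0.24 against 0.28. By role, the median size of change was 0.72 in the 12 tested phosphodiesterases, 0.21 in the 4 PKA regulatory subunits, 0.19 in the 7 cyclases and 0.11 in the 3 CREB factors. In the 9 phosphodiesterases with at least 10 counts in every library it was 0.66, and in the 7 cyclases of that fit 0.17. The levels of the 3 libraries per condition did not overlap for 26 of 37 members (70.3%), against 63.2% of all genes. Among the 17309 genes ordered by log2 fold change, PDE1C was the 76th lowest and PDE4D the 102nd lowest, and ADCY2 was the 117th and PDE3A the 128th highest.

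**Figure D2:**
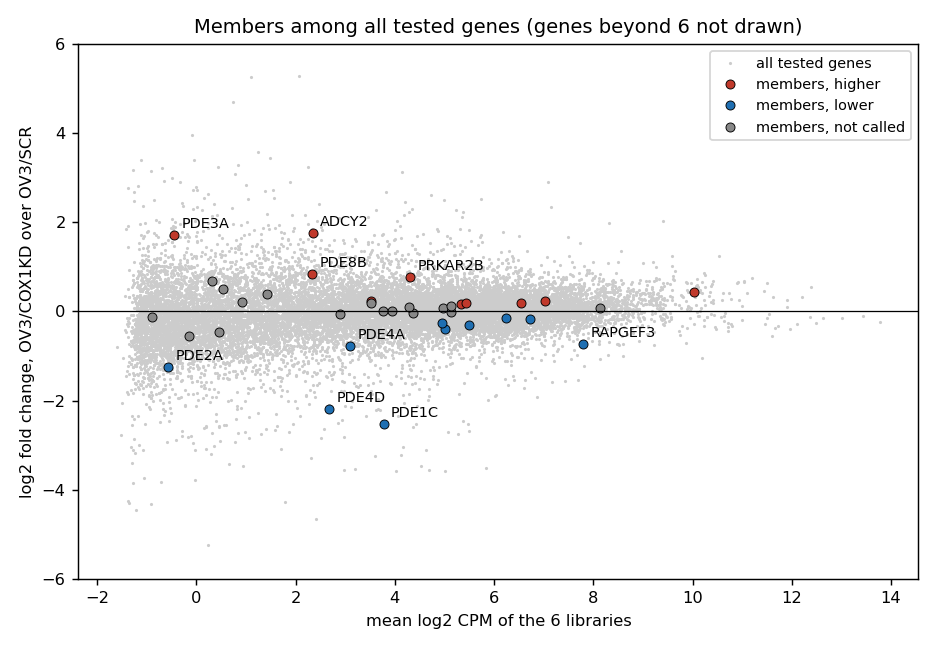
log2 fold change (y axis, OV3/COX1KD over OV3/SCR) against mean log2 CPM of the 6 libraries (x axis) for all 17309 tested genes in grey and the 37 members in colour, red where higher and blue where lower at an FDR under 0.01. GNAS lies at the right among the most abundant genes, whereas PDE3A and PDE2A lie below a mean of 1 CPM.

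GNAS (ENSG00000087460, GRCh37 chromosome 20 from 57414773 to 57486247, plus strand), which encodes the stimulatory G protein alpha subunit, was the most abundant member. The 3 OV3/SCR libraries had 23655, 23579 and 22809 counts and the 3 OV3/COX1KD libraries 31230, 29979 and 31608. Every OV3/COX1KD library stood above every OV3/SCR library. The level rose from 892 ± 11.8 to 1208 ± 29.0 CPM (SD, n = 3), a log2 fold change of 0.44 (SE 0.028, edgeR FDR 6.8e-11). GNAS is an imprinted locus with several alternative first exons, which counts per gene do not separate, and 5.23% of its exon length overlaps other genes, among them the antisense GNAS-AS1.

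Of the 10 adenylyl cyclases, which synthesise cAMP, 7 were tested: ADCY2 rose, ADCY9 and ADCY6 fell, and 4 did not pass the test. The share called was 42.9%, against 47.9% of all genes. ADCY2 (ENSG00000078295, chromosome 5 from 7396251 to 7830194, plus strand), a cyclase stimulated by G protein beta-gamma subunits and by protein kinase C, had 69, 64 and 47 counts in OV3/SCR and 181, 189 and 227 in OV3/COX1KD. The lowest OV3/COX1KD library had more than double the counts of the highest OV3/SCR library. Its level was 2.29 ± 0.412 CPM in OV3/SCR and 7.75 ± 0.689 in OV3/COX1KD, a log2 fold change of 1.76 (SE 0.13, edgeR FDR 9.1e-10). ADCY9, a widely expressed cyclase that forskolin stimulates only weakly, had 985, 938 and 935 counts against 734, 672 and 734. The groups did not overlap, and 76.5% of the level remained (log2 fold change -0.39, SE 0.049, FDR 1.3e-06). ADCY6, a cyclase inhibited by calcium and by inhibitory G proteins, had 2126, 2099 and 2039 counts against 1796, 1787 and 1914. Its level went from 79.7 ± 0.838 to 71.5 ± 0.292 CPM and fell by 0.16 on the log2 scale (SE 0.035, FDR 0.00067).

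The other tested cyclases were ADCY1 (log2 fold change -0.06, FDR 0.64) and ADCY3 (-0.01, FDR 0.82), both stimulated by calcium and calmodulin in some settings, ADCY5 (0.22, FDR 0.30) and ADCY7 (0.19, FDR 0.037). ADCY7 shares 41.8% of its exon length with other genes, of which BRD7 had the same log2 fold change of 0.19, and ADCY3 shares 24.4%, chiefly with CENPO, which fell by 0.21. Where exons overlap, reads may have been split or withheld by the counting, whose strand setting is not given in the sources used here. ADCY4 had 8, 11 and 9 counts in OV3/SCR and 7, 4 and 8 in OV3/COX1KD, and the soluble, bicarbonate-stimulated ADCY10 had 5, 11 and 2 against 4, 3 and 2. Both were below the filter and their groups overlapped.

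Per kilobase of exon, the level at which genes can be compared with one another, ADCY6 was the main cyclase of OV3/SCR with 46.0 ± 0.721% of the summed level. ADCY3 followed with 26.7%, ADCY9 with 16.7% and ADCY7 with 6.04%, and the same order of these 4 held in OV3/COX1KD. The share of ADCY9 was 16.7 ± 0.336% in OV3/SCR and 13.7 ± 0.445% in OV3/COX1KD, and that of ADCY2 was 0.633 ± 0.101% and 2.30 ± 0.197%. ADCY2 thus remained a minor cyclase even where it had risen. The ratio of ADCY2 to ADCY9 per kilobase was 0.0422, 0.0411 and 0.0303 in OV3/SCR and 0.149, 0.170 and 0.186 in OV3/COX1KD. Summed over all cyclases the level per kilobase was 20.5 ± 0.463 CPM in OV3/SCR and 19.1 ± 0.314 in OV3/COX1KD.

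Of the phosphodiesterases, which hydrolyse cyclic nucleotides, several changed by large amounts. Of 15 genes, 12 were tested: PDE1C, PDE4D, PDE2A and PDE4A fell, PDE3A and PDE8B rose, all 6 by more than 0.5 on the log2 scale, and 6 did not pass the test. The share called beyond 0.5 was 50% of those tested, against 19.9% of all genes. That share counts PDE2A and PDE3A, which passed the filter only through the condition in which each was high. Without the scarce PDE2A, PDE3A and PDE3B, 9 were tested, of which PDE1C, PDE4D and PDE4A fell and PDE8B rose. PDE1C (ENSG00000154678, chromosome 7 from 31790793 to 32467743, minus strand) encodes an enzyme activated by calcium and calmodulin that hydrolyses both cAMP and cGMP. It had 622, 596 and 597 counts in OV3/SCR and 116, 90 and 101 in OV3/COX1KD. The libraries of each condition lay close together and far from those of the other. Its level was 23.1 ± 0.231 against 3.997 ± 0.539 CPM, a log2 fold change of -2.53 (SE 0.084, edgeR FDR 3.9e-15), the largest of any member.

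Its relatives of the calcium-activated family were scarce. PDE1A had 9, 17 and 16 counts in OV3/SCR and 4, 2 and 8 in OV3/COX1KD and was below the filter, with a ratio of pooled levels of 0.341 (exact 95% counting interval 0.172 to 0.636). It passed only when no filter was applied (edgeR FDR 0.0036). PDE1B had 5, 12 and 3 counts against 1, 5 and 6, and its groups overlapped.

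The PDE4 family is specific for cAMP and is the target of rolipram. PDE4D (ENSG00000113448, chromosome 5 from 58264865 to 59817947, minus strand) had 249, 296 and 266 counts in OV3/SCR and 69, 40 and 65 in OV3/COX1KD. All OV3/COX1KD libraries were far below all OV3/SCR libraries, with replicate 2 the lowest. Its level was 10.3 ± 1.01 against 2.26 ± 0.594 CPM, a log2 fold change of -2.19 (SE 0.14, FDR 6.6e-11). PDE4A (ENSG00000065989, chromosome 19 from 10527449 to 10580306, plus strand), the member whose start site holds the CRE shown above, had 299, 270 and 272 counts against 147, 161 and 174. The groups did not overlap, and its level was 10.7 ± 0.455 against 6.27 ± 0.372 CPM, 58.6% of that in OV3/SCR (log2 fold change -0.77, SE 0.088, FDR 2.9e-07).

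The other PDE4 genes were low and did not pass the test. PDE4B had 26, 30 and 34 counts against 53, 33 and 39 (log2 fold change 0.50, FDR 0.065). PDE4C had 37, 38 and 42 against 28, 27 and 28 (-0.46, FDR 0.062). Of the PDE4C exon length, 73.9% overlaps other annotated genes, so its value is uncertain. The ratio of PDE4D to PDE4A per kilobase was 0.345, 0.454 and 0.405 in OV3/SCR and 0.194, 0.103 and 0.155 in OV3/COX1KD, so that PDE4D fell further than PDE4A in these libraries.

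PDE2A and the PDE3 genes encode enzymes through which cGMP affects cAMP: cGMP stimulates PDE2A and inhibits PDE3A and PDE3B. PDE2A (ENSG00000186642, chromosome 11 from 72287185 to 72385635, minus strand) had 23, 23 and 20 counts in OV3/SCR and 7, 3 and 17 in OV3/COX1KD. The groups did not overlap, but OV3/COX1KD replicate 3 stood close to the OV3/SCR libraries. Its level was 0.840 ± 0.0580 against 0.345 ± 0.266 CPM, with a log2 fold change of -1.25 (SE 0.38, FDR 0.0090). The call rested on few counts and was lost with DESeq2 (FDR 0.021) and on leaving out any 1 library but OV3/COX1KD replicate 3, without which the log2 fold change was -2.05. In the other 5 such fits the FDR was between 0.022 and 0.040.

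PDE3A (ENSG00000172572, chromosome 12 from 20521471 to 20841517, plus strand) was as scarce, with 9, 11 and 4 counts in OV3/SCR and 23, 28 and 27 in OV3/COX1KD. Every OV3/COX1KD library had at least double the counts of any OV3/SCR library. Its level was 0.305 ± 0.137 against 1.01 ± 0.102 CPM, a log2 fold change of 1.72 (SE 0.33, FDR 0.00017). It entered the test through its OV3/COX1KD libraries and was not tested where at least 10 counts were required in every library. PDE3B, the form best known from adipocytes and liver, had 12, 13 and 13 counts against 6, 15 and 13 and did not pass the test (log2 fold change -0.13, FDR 0.78).

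The PDE7 and PDE8 enzymes bind cAMP with high affinity. PDE8B (ENSG00000113231, chromosome 5 from 76506274 to 76724081, plus strand) had 108, 83 and 91 counts in OV3/SCR and 170, 144 and 177 in OV3/COX1KD. The groups did not overlap, and the level was 3.59 ± 0.437 against 6.38 ± 0.553 CPM (log2 fold change 0.83, SE 0.12, FDR 7.8e-06). Its exons share 51.6% of their length with other genes. These are ENSG00000284762, a protein-coding gene on the same strand that was not among the counted genes, and WDR41 on the opposite strand. WDR41 also rose (log2 fold change 0.35, FDR 3.4e-06) and was several times more abundant per kilobase. PDE8A had 408, 384 and 403 counts against 387, 384 and 404 (log2 fold change 0.01, FDR 0.93). PDE7B had 23, 31 and 17 counts against 42, 39 and 30 (0.67, FDR 0.028) and did not pass. PDE7A had 7429, 7108 and 7071 counts against 7184, 7571 and 7441 (275 ± 3.22 against 289 ± 11.8 CPM, log2 fold change 0.07, SE 0.032, FDR 0.063), and PDE10A, an enzyme known from striatal neurons, had between 0 and 3 counts in every library.

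PDE7A had the most RNA among the 15 listed phosphodiesterase genes, with 78.3 ± 0.0919% of their summed level per kilobase in OV3/SCR and 84.0 ± 0.951% in OV3/COX1KD. In OV3/SCR it was followed by PDE8A (5.74%), PDE1C (4.94%) and PDE4A (4.78%). In OV3/COX1KD the order after PDE7A was PDE8A (5.89%), PDE8B (3.52%) and PDE4A (2.86%), and PDE1C made up 0.873%. With the length of the canonical transcript in place of all exons PDE7A held 73.1% in OV3/SCR, and PDE1C (9.83%) came before PDE8A (6.98%). The summed level per kilobase was 33.1 ± 0.349 CPM in OV3/SCR and 32.4 ± 0.965 in OV3/COX1KD, a difference smaller than the SD of the latter. By canonical transcripts it was 54.0 ± 0.503 against 50.3 ± 1.44, a difference larger than either SD, so the reading of the sum depended on the length used.

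**Figure D3:**
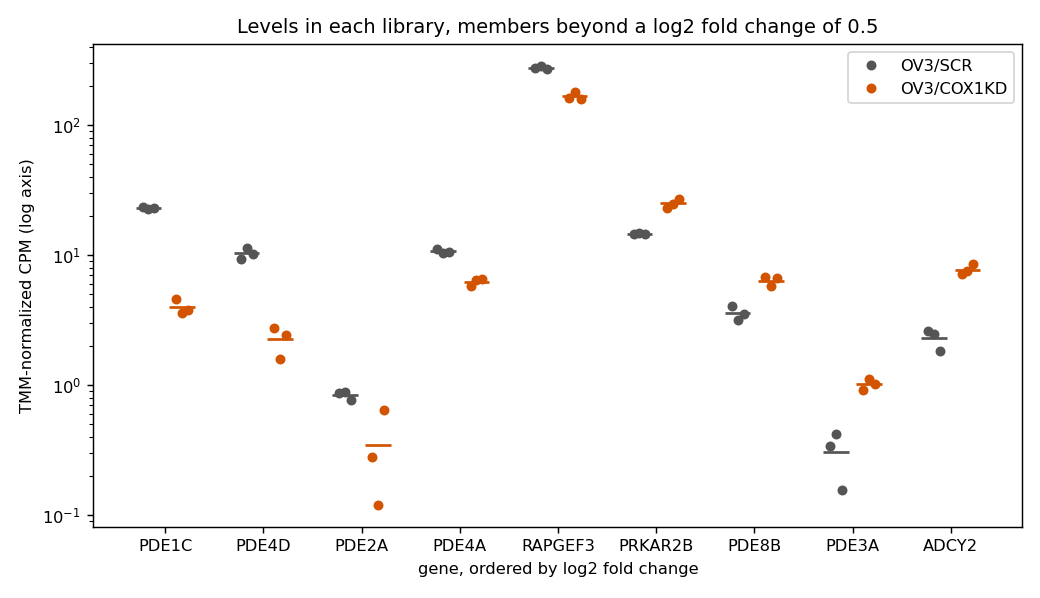
TMM-normalized CPM in each library (y axis, log scale) of the 9 members called with a log2 fold change beyond 0.5, ordered along the x axis by fold change, with OV3/SCR libraries in grey, OV3/COX1KD libraries in orange and a line at each mean of 3. The points of the conditions are apart for all 9 genes, and the gap is smallest for PDE2A, where 1 OV3/COX1KD library at 0.638 CPM approaches the lowest OV3/SCR library at 0.774.

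PKA is a tetramer of 2 catalytic and 2 regulatory subunits, the latter holding the kinase inactive until they bind cAMP. Of the regulatory subunit genes, PRKAR2B, PRKAR2A and PRKAR1A rose and PRKAR1B did not pass the test. PRKAR2B (ENSG00000005249, chromosome 7 from 106685150 to 106802256, plus strand), the type II beta subunit that is prominent in brain, fat and endocrine tissue, had 390, 386 and 378 counts in OV3/SCR and 580, 625 and 722 in OV3/COX1KD. The OV3/SCR libraries were nearly equal, and each OV3/COX1KD library stood well above them. Its level was 14.7 ± 0.108 against 25.03 ± 2.03 CPM, a log2 fold change of 0.77 (SE 0.066, edgeR FDR 4.9e-09).

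PRKAR2A, the ubiquitous type II alpha subunit, had 3185, 3012 and 3213 counts against 3601, 3282 and 3981. Its level was 120 ± 4.36 against 141 ± 9.38 CPM (log2 fold change 0.24, SE 0.042, FDR 7.8e-05). PRKAR1A, the type I alpha subunit that is mutated in Carney complex and carries the CRE shown above, had 2310, 2232 and 2286 against 2510, 2393 and 2708 (0.19, FDR 0.00015). With total count scaling its log2 fold change was 0.11 and it did not pass (FDR 0.012). PRKAR1B had 815, 841 and 740 counts against 790, 857 and 830 (0.08, FDR 0.23).

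Of the catalytic subunits, PRKACA rose by 0.17 on the log2 scale (SE 0.046, FDR 0.0033), with 987, 999 and 994 counts in OV3/SCR and 1114, 1020 and 1152 in OV3/COX1KD (37.9 ± 0.792 against 42.7 ± 1.83 CPM). This call did not hold with total count scaling (log2 fold change 0.09, FDR 0.083), with DESeq2 (FDR 0.017), or without OV3/SCR replicate 1 (FDR 0.020), OV3/SCR replicate 2 (FDR 0.011), OV3/COX1KD replicate 1 (FDR 0.024) or OV3/COX1KD replicate 3 (FDR 0.014). PRKACB had 333, 354 and 371 counts against 350, 339 and 354 (0.01, FDR 0.91).

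Per kilobase of exon, PRKAR2A made up 49.2 ± 1.37% of the regulatory subunits in OV3/SCR and 49.8 ± 1.75% in OV3/COX1KD. The share depended on the length used, and by canonical transcripts PRKAR1A came first in OV3/SCR with 37.02% against 33.42% for PRKAR2A. By either length PRKAR2B came last, with 4.18 ± 0.063% in OV3/SCR and 6.11 ± 0.414% in OV3/COX1KD by exons. The ratio of PRKAR2B to PRKAR2A was 0.0847, 0.0886 and 0.0814 in OV3/SCR and 0.111, 0.132 and 0.125 in OV3/COX1KD. The summed level of the regulatory subunits was 28.0 ± 0.240 CPM per kilobase against 32.5 ± 1.09, and that of the catalytic subunits 7.15 ± 0.241 against 7.81 ± 0.271. Catalytic over regulatory subunits gave 0.256 ± 0.00797 in OV3/SCR and 0.240 ± 0.00773 in OV3/COX1KD, with the groups overlapping.

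The PKI genes encode small peptides that inhibit the free catalytic subunit. PKIG held 93.5% of their summed level per kilobase in OV3/SCR, with 271, 269 and 277 counts against 313, 316 and 314 in OV3/COX1KD (10.4 ± 0.283 against 12.3 ± 0.435 CPM). Its call was borderline (log2 fold change 0.24, SE 0.073, FDR 0.0090), and was lost with total count scaling (FDR 0.070), with at least 10 counts required in every library (FDR 0.015), with DESeq2 (FDR 0.048) and on leaving out any 1 library but OV3/COX1KD replicate 3 (FDR 0.015 to 0.034). Of its exon length 34.6% overlaps other genes, chiefly ADA, whose own log2 fold change was 0.02. PKIB had 35, 18 and 24 counts against 16, 15 and 20 (-0.56, FDR 0.10). PKIA was at or under 3 counts in OV3/SCR, with 0, 2 and 0 counts, and had 5, 4 and 3 in OV3/COX1KD. The ratio of pooled levels was 6.13, with a wide exact 95% counting interval of 1.37 to 56.4, and with no filter on low counts it did not pass the test (FDR 0.058).

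AKAP12, also called gravin, is a scaffold that tethers PKA and protein kinase C beneath the plasma membrane. It had 2840, 3038 and 2958 counts in OV3/SCR and 2545, 2311 and 2838 in OV3/COX1KD (113 ± 5.29 against 99.96 ± 7.22 CPM), and fell by 0.17 on the log2 scale (SE 0.046, FDR 0.0036). OV3/COX1KD replicate 3 was the closest to the OV3/SCR libraries in counts, and it was also the deepest library. The call was lost without OV3/SCR replicate 2 (log2 fold change -0.14, FDR 0.039) and without OV3/SCR replicate 3 (-0.15, FDR 0.029).

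RAPGEF3 (Epac1; ENSG00000079337, chromosome 12 from 48128146 to 48164823, minus strand) is the exchange factor through which cAMP activates RAP1 without PKA. It was among the most abundant members, with 7308, 7468 and 6999 counts in OV3/SCR and 4073, 4503 and 4238 in OV3/COX1KD. No OV3/COX1KD library came near the OV3/SCR libraries. Its level was 277 ± 8.34 against 167 ± 11.2 CPM, 60.2% of that in OV3/SCR (log2 fold change -0.73, SE 0.040, edgeR FDR 5.5e-12). Of its exon length 15.9% overlaps other genes, among them SLC48A1, which moved in the opposite direction (log2 fold change 0.32, FDR 7.7e-08).

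RAPGEF4 (Epac2), the form of brain and endocrine pancreas, had 52, 64 and 61 counts in OV3/SCR and 78, 71 and 77 in OV3/COX1KD and did not pass the test (log2 fold change 0.38, FDR 0.039). RAPGEF3 held 98.6 ± 0.146% of the summed Epac level per kilobase in OV3/SCR and 97.1 ± 0.279% in OV3/COX1KD, so the sum followed it, with 23.2 ± 0.708 CPM per kilobase in OV3/SCR and 14.2 ± 0.914 in OV3/COX1KD.

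The 3 CREB factors are bZIP proteins that bind the CRE as dimers. ATF1 rose slightly, with 1065, 1061 and 1052 counts in OV3/SCR and 1175, 1174 and 1207 in OV3/COX1KD (40.5 ± 0.435 against 46.3 ± 0.849 CPM, log2 fold change 0.19, SE 0.042, FDR 0.00055), but not with total count scaling (0.12, FDR 0.024). CREB1 had 856, 834 and 935 counts against 889, 870 and 1022 (0.11, FDR 0.090). CREM had 536, 524 and 576 against 534, 469 and 568 (-0.03, FDR 0.74). CREM encodes activators and, from the start site inside the gene, the inducible repressor ICER, and counts per gene do not tell these transcripts apart. Per kilobase of exon, ATF1 made up 69.1 ± 1.28% of the CREB factors in OV3/SCR, CREM 17.6% and CREB1 13.3%, an order that also held in OV3/COX1KD.

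The CRTC coactivators move to the nucleus when cAMP or calcium signals lead to their dephosphorylation, and strengthen CREB at its target promoters. CRTC2 had 1338, 1322 and 1252 counts in OV3/SCR and 981, 1104 and 1007 in OV3/COX1KD (49.8 ± 1.203 against 40.3 ± 3.33 CPM), and fell by 0.31 on the log2 scale (SE 0.052, FDR 4.1e-05). CRTC1 had 862, 956 and 836 against 674, 735 and 763 and fell by 0.26 (SE 0.058, FDR 0.00073). Without OV3/SCR replicate 2 CRTC1 was just outside the threshold (log2 fold change -0.19, FDR 0.011). CRTC3 had 456, 518 and 505 counts against 481, 528 and 530 (0.09, FDR 0.27). CRTC2 was the main form, with 67.7 ± 1.33% of the summed level per kilobase in OV3/SCR and 65.4 ± 1.41% in OV3/COX1KD, and the sum was 20.4 ± 0.684 against 17.1 ± 1.13 CPM per kilobase.

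**Figure D4:**
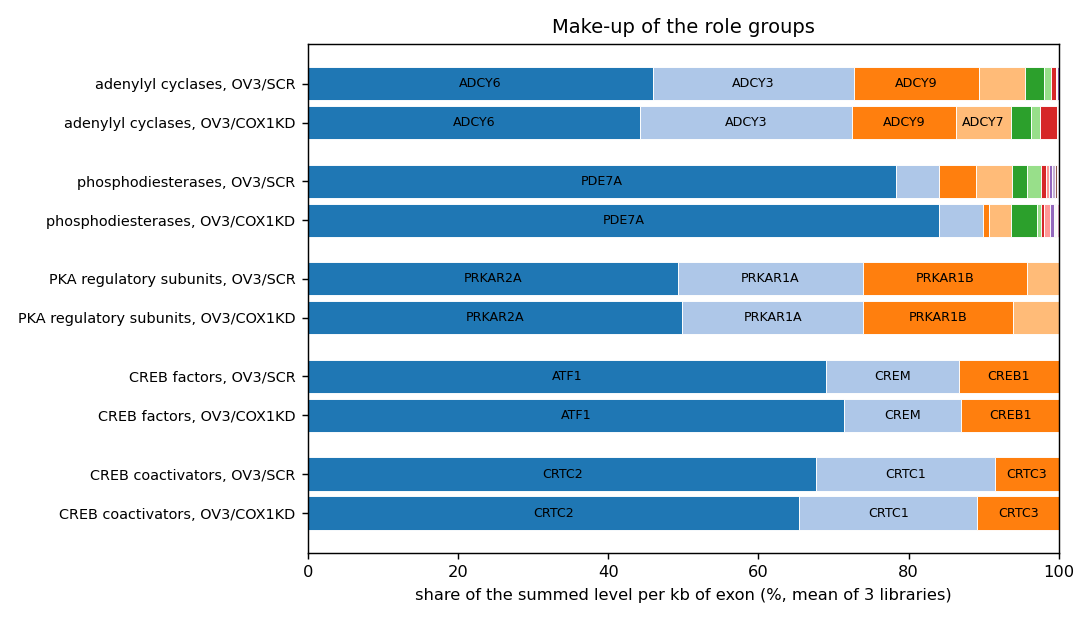
Share of each gene in the summed level per kilobase of exon of its role group (x axis, percent, mean of 3 libraries), with 1 bar per condition for the cyclases, phosphodiesterases, PKA regulatory subunits, CREB factors and CREB coactivators, colours in the OV3/SCR order within each group and segments of 7% or less without a name. The leading gene of each bar was the same in both conditions, and PDE7A widened from 78.3% to 84.0% of the phosphodiesterases.

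The rest of the pathway was followed in 6 further lists with 123 genes, of which 65 were tested, 20 were higher and 19 lower (60% called, against 47.9% of all genes). Without OV3/SCR replicate 2 the lower calls numbered 12. Of 45 receptors known to couple to the stimulatory G protein, 12 were tested, 4 rose and 1 fell (41.7% called). TSHR, the thyrotropin receptor, rose from 23.1 ± 0.617 to 69.3 ± 2.01 CPM (log2 fold change 1.58, SE 0.045, FDR 3.8e-16). PTGER2, which encodes the EP2 receptor for PGE2, rose from 4.29 ± 0.486 to 10.4 ± 0.930 CPM (1.28, FDR 3.1e-09). PTGER4, the gene of the EP4 receptor, which is named here after its values were seen, had 69, 56 and 60 counts in OV3/SCR and 52, 42 and 38 in OV3/COX1KD. Its groups did not overlap, but it did not pass the edgeR test (log2 fold change -0.45, SE 0.18, FDR 0.039). The study, which tested with DESeq2, reported PTGER4 as significantly lower. In the DESeq2 fit used here as an alternative, 1 receptor gene was again called lower, which was MC1R and not PTGER4. The adenosine receptor ADORA2B rose by 0.54 (FDR 0.0013), though not past the threshold without OV3/SCR replicate 3 (FDR 0.013), and the melanocortin receptor MC1R fell by 0.76 (FDR 5.1e-05). Of the MC1R exon length 48.2% overlaps other genes, among them TCF25 on the same strand.

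A list of 7 genes held the G protein alpha genes GNAL, GNAI1, GNAI2, GNAI3, GNAO1 and GNAZ and their chaperone RIC8B. Other families of alpha subunits were not in the list. All 7 were tested, 4 rose and none fell, a share called of 57.1% against 47.9% of all genes (25.8% higher and 22.1% lower). The genes that rose encode inhibitory subunits, which oppose cyclase activation, as do most alpha genes of the list. GNAO1, also of the inhibitory class, did not pass the test (log2 fold change 0.34, FDR 0.098). GNAI2 rose from 131 ± 2.10 to 185 ± 2.66 CPM (log2 fold change 0.50, FDR 4.0e-11), GNAZ by 0.80 (FDR 0.00025), GNAI1 by 0.36 (FDR 2.9e-07) and GNAI3 by 0.19 (FDR 0.00027). GNAI3 did not pass with total count scaling (FDR 0.018). Of 18 other cAMP effectors, 10 were tested, 4 rose and 4 fell (80% called, against 47.9% of all genes). The number of lower calls was not stable. It was 2 with DESeq2, 1 without OV3/SCR replicate 2 and at most 3 with any single library omitted. With RLE size factors, total count scaling or at least 10 counts in every library it stayed at 4. The number of higher calls was 4 in all these fits. PDE11A, a further phosphodiesterase of dual specificity, had a log2 fold change of 1.87 (1.26 ± 0.128 against 4.62 ± 0.161 CPM, FDR 2.7e-09), and the PKA-related kinase gene PRKX rose by 0.77 (FDR 4.1e-12). CNGB1, a cyclic nucleotide-gated channel subunit, rose by 0.97 (FDR 6.4e-06), and the cAMP-binding membrane protein gene POPDC3 fell by 1.81 (FDR 1.2e-08). Of the POPDC3 exon length 36.8% overlaps BVES-AS1.

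Of 14 further A-kinase anchoring proteins, 11 were tested, 1 rose and 3 fell (36.4% called, against 47.9% of all genes). AKAP1, which anchors PKA at mitochondria, rose by 0.47 (FDR 1.2e-10). AKAP13, AKAP8 and AKAP8L fell by 0.26, 0.21 and 0.15 (FDR 0.0017, 0.0051 and 0.0040). Each of the 3 lost its call without OV3/SCR replicate 2 (FDR 0.015, 0.033 and 0.027) and without OV3/SCR replicate 3 (FDR 0.011, 0.035 and 0.011), and AKAP8 and AKAP8L also without OV3/COX1KD replicate 1 (FDR 0.047 and 0.037) and without OV3/COX1KD replicate 3 (FDR 0.011 and 0.014). AKAP8L also missed without OV3/SCR replicate 1 (FDR 0.017) and with no filter on low counts (FDR 0.014), and AKAP13 with DESeq2 (FDR 0.049).

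Of 15 relatives and cofactors of CREB, 13 were tested, 5 rose and 4 fell (69.2% called, against 47.9% of all genes, 25.8% higher and 22.1% lower). By size the list was not above all genes: 1 of the 13 was called beyond 0.5 on the log2 scale (7.69%, against 19.9%). The median size of change was 0.283, against 0.277 over all genes. CREB5, a bZIP factor related to ATF2, fell from 29.2 ± 2.22 to 7.07 ± 0.930 CPM (log2 fold change -2.05, SE 0.083, FDR 6.5e-14). CREB3L2, CREB3L4 and CREB3, whose proteins are held in membranes until they are cleaved, rose by 0.45, 0.44 and 0.43 (FDR 3.2e-06, 1.5e-05 and 2.3e-07).

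Of 24 genes long described as CREB targets, 12 were tested, 2 rose and 7 fell, so that 75% were called, against 47.9% of all genes (25.8% higher and 22.1% lower). The median log2 fold change was -0.65, against -0.01 over all genes. EGR1, an immediate-early zinc finger factor, rose from 5.71 ± 0.629 to 31.4 ± 2.10 CPM (log2 fold change 2.46, SE 0.080, FDR 2.6e-15), and FOS, named here after its value was seen as the other target that rose, had a log2 fold change of 1.01 (FDR 5.3e-08). ATF3, a stress-induced bZIP gene, fell by 1.85 (FDR 1.0e-13), from 18.1 ± 0.204 to 5.02 ± 0.0404 CPM. PPARGC1A, a coactivator of mitochondrial genes, fell by 1.47 (FDR 7.0e-12), and DUSP1, whose CRE is shown above, by 1.47 (FDR 1.6e-08). EGR1 and FOS are known to be induced through the serum response element as well, and whether this played a part here was not tested. Whether CREB had a part in the change of any target, higher or lower, was not tested either. By promoter, the full CRE was found in 5 of 27 promoters of the 19 matched target genes (18.5%, against 1.85% of all promoters), in AREG, CGA, DUSP1, SST and VGF. CGA and SST had no row in the count table. Of the target genes named here as changed, only DUSP1 was among those with the full CRE.

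**Figure D5:**
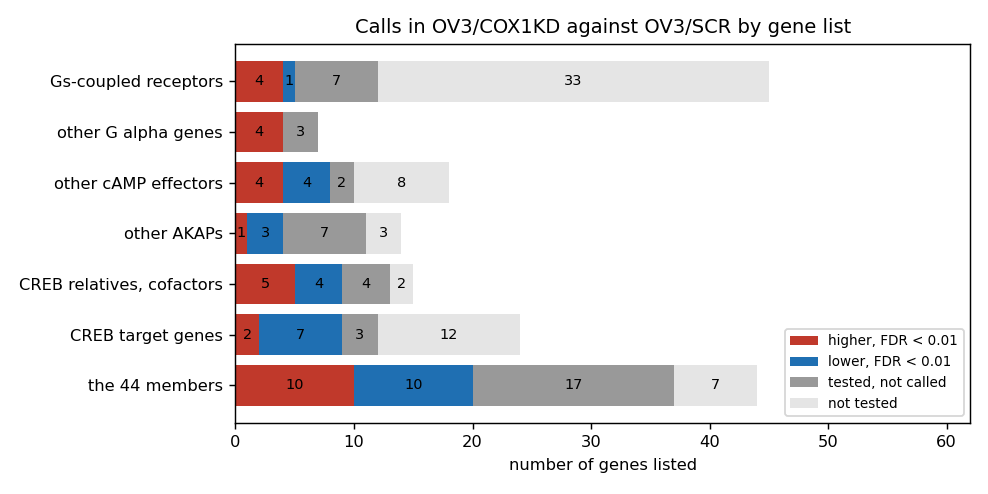
Number of genes (x axis) in each pathway list and among the 44 members that were higher, lower, tested without a call, or not tested, in OV3/COX1KD against OV3/SCR at an edgeR FDR under 0.01. The members divide into 10 higher and 10 lower, the list of other G alpha genes has 4 higher and 0 lower, and the CREB target list has 2 higher and 7 lower.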

How the data were processed

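RNA-seq counts of 6 libraries, 3 OV3/SCR and 3 OV3/COX1KD, were used, with groups and replicate numbers from the labels and the clones from the study's methods. The authors used TopHat2 to place reads on hg19 and HTSeq for counting, and the deposited values are raw counts of 34811 genes, unnormalized. The annotation and strand setting are not given in the sources used here. Overlapping genes may therefore share or lose reads.

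In R 4.3.3 with edgeR 4.0.16, genes were kept by filterByExpr (17309), scaled by TMM and tested by glmQLFit and glmQLFTest with no covariate, and p-values were adjusted by Benjamini-Hochberg over every kept gene. The threshold was an FDR under 0.01, and limits of 0.5 (log2) and 2.5-fold followed the study. The SE was the log2 fold change over the square root of F. The common dispersion gave a coefficient of variation of 3.21%, between passages of 1 clone. Values below 3 counts were taken as not detectable.

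Levels between genes were compared as TMM-normalized CPM per kilobase of exon (GENCODE 44 lifted to GRCh37, 33556 genes matched). All 44 members were named. Those called past 0.5 got all values, and the most abundant of each role also its level. From each companion list at most 4 genes past the threshold were named, by size of change at a mean log2 CPM of at least 1. The members and lists were chosen with earlier results of these data known.

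Alternatives were DESeq2 1.42.0, total count scaling, RLE size factors, a filter of 10 counts in every library or none, a block on the replicate number, omission of each library, glmTreat, and CPM without division by length. Canonical transcript length was added after the data were seen. Protein sequences were not analysed here.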

Additional observations from a re-analysis of the deposited data

How the results depend on the processing

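Across the 12 alternatives refitted for single genes, 13 of the 20 called members kept their call in each that gave them a value, and of the 9 beyond 0.5 on the log2 scale 8 did, the exception being PDE2A. The 37 members kept direction and call with RLE size factors. With total count scaling 6 members were called higher, against 10 in the reported fit. With at least 10 counts in every library, 1 member was called higher with a fold change above 2.5, since PDE3A was no longer tested. Leaving out each library in turn gave 8 to 9 higher and 7 to 11 lower members, 2 to 4 lower members above a fold change of 2.5 (4 without OV3/COX1KD replicate 3), and 12 to 19 lower companion genes (12 without OV3/SCR replicate 2). glmTreat against 0.5 called 3 higher and 4 lower members. Companion genes called lower numbered 14 with DESeq2. Samples with the same replicate number had correlations of their deviations of 0.0045, 0.042 and 0.0090, so the numbers were not taken as pairs, and OV3/SCR replicate 1 correlated best with OV3/COX1KD replicate 3. The fit with the replicate block called 9 members higher and 10 lower, and of the members it changed only PKIG (FDR 0.014).

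Direction turned only in members that were not called. With total count scaling log2 fold changes were -0.0067 for PDE7A, -0.071 for PDE8A and -0.067 for PRKACB, and with at least 10 counts -0.00995 for PDE8A and -0.00642 for PRKACB. With no filter ADCY3 was at 0.0082. Leaving out 1 library at a time gave ranges that included 0 for ADCY1 (-0.126 to 0.0442), ADCY3 (-0.0561 to 0.0209), PDE3B (-0.389 to 0.164), PDE8A (-0.0136 to 0.0283), PRKACB (-0.0395 to 0.0613) and CREM (-0.059 to 0.0372).

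Shares in OV3/SCR depended on the length used. Without division by length PDE7A held 79.9%, PRKAR2A 47.5%, PKIG 91.2%, ATF1 42.8% and CRTC2 48.6% of their groups, and by canonical transcript ADCY6 held 47.1%, PDE7A 73.1%, PRKAR2A 33.4% and ATF1 61.3%. PDE10A, at 0 to 3 counts in every library, was too scarce for a fold change to be given.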
